A study of Caenorhabditis elegans with 4 samples.

Results

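The wide REC-8 peaks are stretches of at least 800 bp that the authors' series-wide peak list marks as bound by REC-8. They were chosen by width alone, as last base minus first base plus 1, among the peaks on the 6 nuclear chromosomes, and there were 487 of them among 7831. Width is thus the rule and not a finding, and score, which comes from the same peak call, is given as a description. Placement on the chromosomes, overlap with each replicate's own list and distance to neighbours are described beside the same values of the 7344 narrower peaks. With 1 list per ChIP sample no test over samples could be made, so no p-value is given, and intervals are exact Clopper-Pearson 95% intervals that cover counting error only.

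REC-8 is a kleisin, the subunit that closes the cohesin ring around DNA by bridging the heads of its SMC proteins. In meiosis it replaces the kleisin of mitotic cohesin, holds sister chromatids together and forms part of the axis from which chromatin loops extend, until separase cleaves it. In Caenorhabditis elegans it shares these tasks with the related kleisins COH-3 and COH-4. A peak caller reports where immunoprecipitated fragments pile up, and the width it gives depends on the extent of the signal as well as on the caller's settings.

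The study immunoprecipitated chromatin of hermaphrodites of genotype fem-2(b245)III, labelled as young adults that contain a germline and grown at 20 °C, with the affinity-purified rabbit polyclonal antibody SDQ0802 against REC-8. The 4 samples are ChIP replicates 1 and 2 and input DNA replicates 1 and 2; all carry fem-2(b245), and FEM-2 is a phosphatase of the male-fate pathway, so there is no wild-type group. Chromatin came from bulk cultures of whole worms, so germ cells and somatic cells are mixed. The labels do not say whether replicates came from separate cultures, and the peak lists do not give read totals, so depth is unknown and a peak missing from a list is not evidence that REC-8 was absent there.

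Most of the wide peaks were only a little above the minimum. Their median width was 1048 bp, with quartiles of 896.5 and 1393 bp and a maximum of 10791 bp, against a median of 280.5 bp for the narrower peaks. Of the 487, 215 were under 1000 bp, 168 were from there to under 1500 bp, 56 reached 2000 bp and 22 reached 3000 bp. Together they made up 6.22% of the nuclear peaks but held 652 kb, or 21.8% of all bases under peaks. The minimum cut through a smooth slope of widths: 43 peaks were 800 to 829 bp wide and 53 were 770 to 799 bp wide, with median scores of 34.7 and 27.5.

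**Figure D1:**
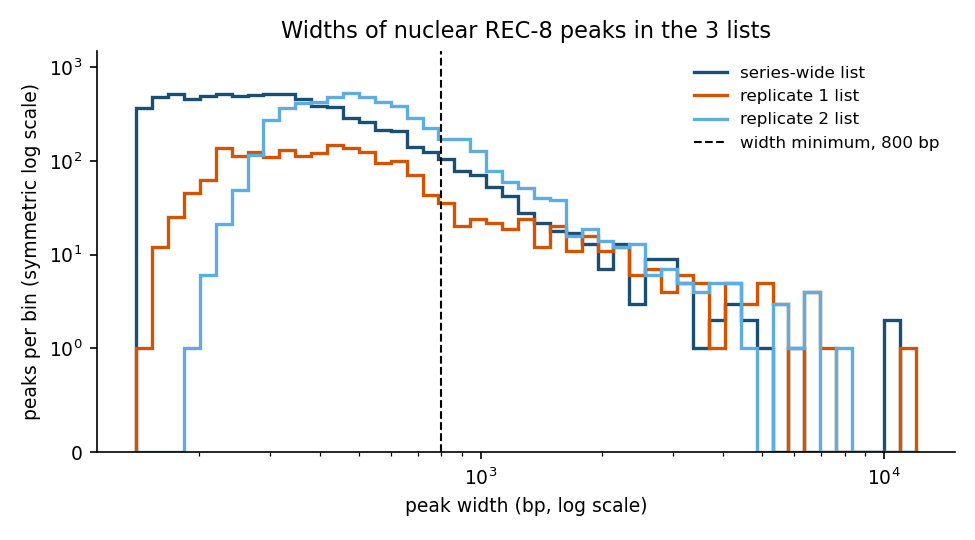
Number of nuclear peaks per bin of width in the series-wide list and the lists of both replicates (x axis, width in bp on a log scale; y axis, peaks per bin on a symmetric log scale). The dashed line marks the 800 bp minimum, which lies on the falling slope of all 3 lists, and 487 series-wide peaks lie at or right of it.

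The peaks nearest the minimum looked alike on both sides of it. Just inside were peaks on II from 14836130 to 14836929 (800 bp, series-wide score 30.1), on I from 7857543 to 7858343 (801 bp, 13.9) and on III from 10435928 to 10436728 (801 bp, 47.1). Just outside were peaks on III from 6158630 to 6159428 (799 bp, 13.5), on V from 14124162 to 14124960 (799 bp, 71.1) and on IV from 385032 to 385829 (798 bp, 120). In each trio, 1 peak met replicate 2 alone and the others met both replicates. All coordinates are those of WormBase WS220, the build named in the file headers.

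The 10 widest peaks differed greatly in how strongly and by which replicate they were called. The widest, near the end of chromosome I and spanning 15060409 to 15071199, came with a series-wide score of only 6.39; 1 replicate 1 peak (score 3062, rank 37 of 2001) spanned all of it, and no replicate 2 peak touched it. The second, on X from 16929237 to 16939926 (10690 bp, score 107), was broken at almost the same places in both replicates. Replicate 1 had pieces of 6815, 3109, 383 and 235 bp there, and replicate 2 had pieces of 6866, 3145 and 726 bp, the largest with a score of 3100 in each. A score of 3100 was shared by many of the strongest replicate peaks, 34 in replicate 1 and 41 in replicate 2.

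The next in width were single long peaks in replicate 2 but several in replicate 1. On I from 7078985 to 7085303 (6319 bp, score 50.8), replicate 2 had 1 peak of 6670 bp scoring 3100, and replicate 1 had 5 peaks of 475 to 2013 bp scoring 84.0 to 754. On V from 9339800 to 9344824 (5025 bp, score 73.2), replicate 2 had 1 peak of 6474 bp, and replicate 1 had 3, the widest of 3293 bp. Both replicates thus marked the same stretch but split it differently.

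Of the rest, 4 were strong in both replicates. These lay on V from 723614 to 728195 (4582 bp, score 84.2), on I from 3389919 to 3394317 (4399 bp, 104), on X from 4207300 to 4211594 (4295 bp, 178) and on X from 14524049 to 14527965 (3917 bp, 175). Each met a peak scoring 3100 in replicate 1 and another in replicate 2. The remaining pair met replicate 1 alone. On III from 324736 to 329335 (4600 bp, score 8.79) replicate 1 had 8 peaks of 209 to 1063 bp, and on I from 13610094 to 13614287 (4194 bp, score 19.8) it had 3, the widest of 3547 bp with a score of 2811.

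Wide peaks lay on all chromosomes, and X had the most. X held 131 of the 487 (26.9%, 23.0 to 31.1), against 22.2% (21.3 to 23.2) of narrower peaks and 22.5% of all nuclear peaks, on 17.7% of the nuclear length. This was 7.39 wide peaks per Mb on X, followed by 5.88 on III, 4.98 on I, 4.46 on II, 4.29 on IV and 2.72 on V. The density on X was 1.71 times that of the autosomes for wide peaks and 1.33 times for narrower ones. Chromosome V, the longest, had the fewest wide peaks, 57.

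The share on X was higher among the widest. X held 48 of the 215 peaks under 1000 bp (22.3%), 15 of 48 between 1500 and 2000 bp (31.3%) and 27 of the 56 of 2000 bp or more (48.2%). Wide peaks held 27.7% of the bases under peaks on X and from 18.5% (III) to 21.3% (II) on the autosomes. Median width differed less, from 1012 bp on III to 1083 bp on X. The widest peak of each chromosome was 10791 bp on I, 10690 bp on X, 5025 bp on V, 4600 bp on III, 3335 bp on II and 2985 bp on IV. Within the replicate lists, X held 72 of the 274 peaks of at least 800 bp in replicate 1 (26.3%) and 186 of 819 in replicate 2 (22.7%). The X share of all peaks in each of these lists is not given. These counts therefore do not show whether wide replicate peaks are over-represented on X.

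Along the chromosomes the wide peaks were spread much like the narrower ones. The central section, 33.3% of each chromosome's extent, held 177 of them (36.3%, 32.1 to 40.8), against 37.1% of narrower and 37.0% of all nuclear peaks. Single chromosomes were less even. On II the right section held 38 of 68 wide peaks (55.9%, 43.3 to 67.9) against 36.8% of narrower ones, and on I the right section held 13 of 75 (17.3%, 9.57 to 27.8) against 28.2%. These differences between sections were not tested.

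The outermost Mb at the chromosome ends held 50 wide peaks (10.3%, 7.72 to 13.3) and 10.5% of narrower ones. Each chromosome is known to have a pairing centre, which joins homologues in meiosis, toward one of its ends. The counts at these ends were 8 on the left of X and of III, 4 on the left of II, 4 on the right of IV, 2 on the right of I and 0 on the right of V. The opposite ends had 7 on X, 3 on III, 6 on II, 1 on IV, 6 on I and 1 on V. These counts lack those of narrower peaks at the same ends, so they do not show where wide peaks are over-represented. Over all chromosomes, left ends held 5.75% of wide peaks (3.85 to 8.20) and 4.48% of narrower ones. Right ends held 4.52% (2.85 to 6.76) and 5.99%. Of the 8 on the left end of X, 5 met replicate 1 alone, and of the 8 on III, 3 did. These are not separate sites. The 5 on X lay under replicate 1 peaks of 4932 and 5567 bp, and the 3 on III were successive wide peaks. Of the 7 on the right end of X, all met both replicates.

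Wide peaks were mostly among the strong ones. Their median series-wide score was 32.3 (interval of the median 29.8 to 36.2) against 7.98 for narrower peaks (7.70 to 8.16), and 209 of them (42.9%) were in the highest score decile, which held 7.82% of narrower peaks. They made up 8 of the 10 best scoring nuclear peaks, 53 of the best 100 and 163 of the best 500. Scores spanned nearly the whole scale all the same, from 4.16 to 204, and 42 wide peaks (8.62%) lay below the median of all nuclear peaks, 8.51. Across the 487 peaks, width and score were weakly related (Spearman's rho 0.21), while across the 7344 narrower peaks rho was 0.63. Points of both come from the same peak call. Each set is cut by the rule on width, so the values of rho are not directly comparable. Median score was 28.9 (23.3 to 33.4) for wide peaks under 1000 bp and 70.4 (46.1 to 137) for those of 2000 to under 3000 bp.

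The highest scoring wide peak of each chromosome was seldom among its widest. On X it ran from 805603 to 807767 (2165 bp, score 204), on IV from 9196111 to 9197344 (1234 bp, 170) and on I from 4768972 to 4770161 (1190 bp, 159). On II it ran from 4701106 to 4702037 (932 bp, 135), on V from 6071333 to 6072744 (1412 bp, 109) and on III from 13462614 to 13463448 (835 bp, 82.1). Each met 1 peak in each replicate. The one on III was the weakest of them, with scores of 285 in replicate 1 and 787 in replicate 2.

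Replicate 2 found nearly all wide peaks and replicate 1 most of them. Of the 487, 460 met a replicate 2 peak (94.5%, 92.0 to 96.3; 68.4% of all nuclear peaks) and 372 a replicate 1 peak (76.4%, 72.4 to 80.1; 23.8% of all). Both replicates marked 349 (71.7%, 67.4 to 75.6), against 19.1% of all nuclear peaks and 15.6% (14.8 to 16.4) of narrower ones. Replicate 2 alone marked 111 (22.8%; 49.3% of all), replicate 1 alone 23 (4.72%; 4.71% of all) and neither 4 (0.821%; 26.9% of all). The share depended on the overlap rule. With a reciprocal overlap of 50% with a single peak, 38.6% of wide and 12.3% of narrower peaks met both replicates, and 47.6% and 15.0% met replicate 1. At 1 shared bp, the share met by replicate 1 alone was close to that in the whole list, while both replicates together took a larger share.

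A wide peak has more room to meet another peak, and the series-wide list may draw on the same reads as the replicate lists, which is not stated. With only the midpoint of the series-wide peak counted, 55.2% of wide peaks (50.7 to 59.7) and 14.9% of narrower ones (14.1 to 15.7) lay inside peaks of both replicates. This count is not free of width, since replicate peaks were wider at wide peaks. At wide peaks met by both, the widest replicate 1 and replicate 2 peaks had medians of 661 and 1238 bp. At narrower peaks met by both, these were 383 and 633 bp. With narrower peaks weighted to the score deciles of the wide ones, 54.1% of narrower peaks met both replicates, 55.2% met replicate 1 and 94.4% met replicate 2. At matched score deciles, narrower peaks thus met replicate 2 as often as wide ones did (94.4% against 94.5%), and met replicate 1 less often (55.2% against 76.4%). Replicate 1 alone took 1.11% of narrower peaks at matched deciles, against 4.72% of wide ones. These differences were not tested. Scores can still differ within a decile: wide peaks were 26.7% of the highest decile but 53 of the best 100 peaks.

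Within score deciles the share of both replicates was higher in wide peaks at each of the upper 6 deciles. In the lowest of these, the fifth, it was 6 of 17 (14.2% to 61.7%) against 1.96% of narrower peaks. However, 4 of those 6 were successive wide peaks on V from 17120568 to 17131960. They are not separate sites, and the interval treats them as such. The lower deciles held few wide peaks, and of the 2, 8 and 15 in the second, the third and the fourth decile none met both replicates, against 0.256%, 0.516% and 1.17% of narrower ones. In the eighth decile it was 56.1% (32 of 57, 42.4 to 69.3) for wide and 20.5% (17.6 to 23.6) for narrower peaks. The ninth gave 84.9% (76.6 to 91.1) against 52.0% (48.2 to 55.8). In the sixth decile, with 25 wide peaks, the intervals overlapped, with 2 of 25 (interval 0.984% to 26.0%) against 3.30% (2.15 to 4.83).

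**Figure D2:**
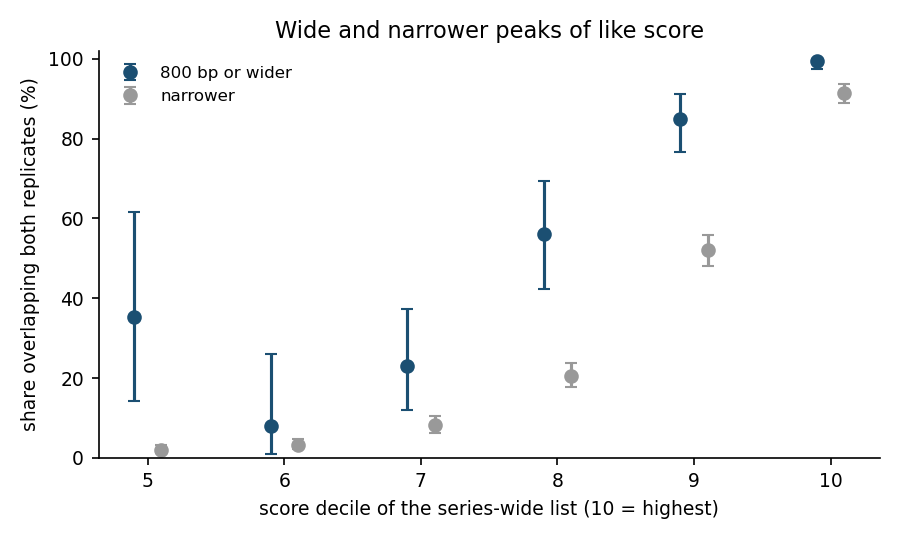
Share of peaks overlapping peaks of both replicates (y axis, %) by series-wide score decile (x axis, 10 = highest), for wide peaks (blue) and narrower peaks (grey); bars are exact Clopper-Pearson 95% intervals. Wide peaks lie above narrower ones in the deciles shown, and in the sixth the intervals overlap. In the fifth, 4 of the 6 wide peaks met by both are neighbours on V, so its interval does not count separate sites.

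Agreement between replicates differed with width, with no rise at the minimum itself. Both replicates marked 67.9% of the 53 peaks of 770 to 799 bp and 62.8% of the 43 of 800 to 829 bp. Both replicates marked 140 of the 215 wide peaks under 1000 bp (65.1%), 116 of the 168 of 1000 to under 1500 bp (69.0%), 42 of the 48 of 1500 to under 2000 bp (87.5%) and 33 of the 34 of 2000 to under 3000 bp (97.1%). Among the 22 of 3000 bp or more it was 18 (81.8%), and the other 4 met replicate 1 alone. Peaks met by replicate 2 alone reached 1712 bp at most. The widest of these lay on X from 5844665 to 5846376 (1712 bp, score 11.9), on II from 12725444 to 12727149 (1706 bp, 13.0) and on X from 4246015 to 4247615 (1601 bp, 30.1).

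**Figure D3:**
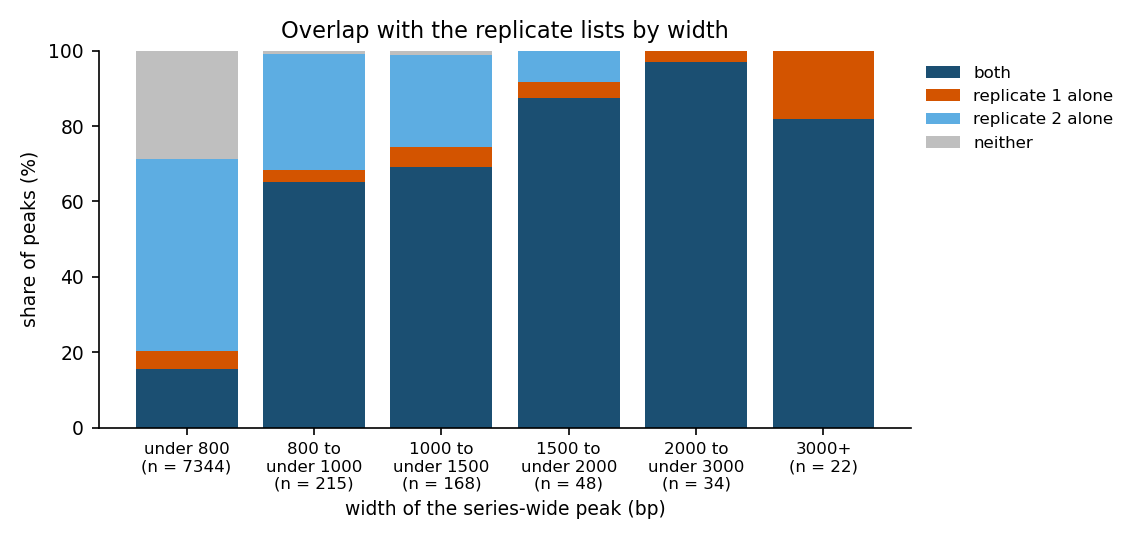
Share of series-wide peaks (y axis, %) that overlap both replicates, replicate 1 alone, replicate 2 alone or neither, by width class in bp (x axis, with the number of peaks). The share overlapping both is 15.6% below 800 bp and 97.1% from 2000 to under 3000 bp, and replicate 1 alone takes 18.2% of those of 3000 bp or more. The class below 800 bp pools all narrower peaks, and among its 53 peaks of 770 to 799 bp the share overlapping both is 67.9%.

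Where both replicates marked a wide peak, their strongest peaks were also strong within their own lists. At these 349 sites the best replicate 1 peak had a median rank of 450 of 2001 and the best replicate 2 peak a median rank of 282 of 5347. At the 1144 narrower peaks met by both, the median ranks were 1035 and 1051.5. All 36 replicate 1 peaks and all 42 replicate 2 peaks with scores of 3100 or more overlapped a wide peak. The share over all replicate peaks is not given. Of the 100 best peaks in each list, 88 in replicate 1 and 91 in replicate 2 were themselves at least 800 bp wide. Width thus enters this count. There were 29 wide peaks at scores of 3100 or more in both replicates, and 26 of them were on X. Wide peaks under the same replicate peak count once each, as the 36 and 42 peaks met 40 and 49 wide peaks. Over the 268 wide peaks with 1 peak in each replicate, the scores of the replicates had a Spearman's rho of 0.43, and over the 229 of these below 3100 in both it was 0.26. Over the 1128 narrower peaks with 1 peak in each replicate it was 0.49. All these points share 2 libraries, and peaks are not independent.

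Most wide peaks met 1 peak of a replicate, 297 in replicate 1 and 420 in replicate 2. More than 1 peak of a replicate fell in 101 wide peaks (20.7%, 17.2 to 24.6), against 1.86% of all nuclear peaks. This was 75 for replicate 1 and 40 for replicate 2. A wide peak has more room to hold several peaks, so the width rule itself enters this contrast. The share was 8.84% of wide peaks under 1000 bp and 68.2% of those of 3000 bp or more. Replicate 1 peaks covered less of a wide peak than replicate 2 peaks did. The median was 55.4% of its bases in replicate 1 and 99.5% in replicate 2. The widest replicate 1 peak had a median of 0.61 times the width of the wide peak it met (372 peaks), and the widest replicate 2 peak 1.09 times (460 peaks). It was wider than the series-wide peak at 57 sites in replicate 1 and at 296 in replicate 2. The replicate 1 list is also the shorter one, and the part of its depth in this was not tested.

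Several series-wide peaks often lay under 1 replicate 2 peak. Of the 487, 100 (20.5%, 17.0 to 24.4) shared a replicate 2 peak with another series-wide peak. The share was 7.56% of narrower and 8.36% of all nuclear peaks. For replicate 1 it was 26 (5.34%), against 2.94% of narrower and 3.09% of all. A wide peak has more length to meet such a replicate peak, so the width rule enters this contrast too. The wide peaks that met the most replicate 2 peaks, 3 each, included one on II from 694238 to 697552 (3315 bp, score 18.3) and one on IV from 12022578 to 12025400 (2823 bp, score 32.7). At the latter, replicate 1 covered 96.9% of the bases with a best peak of rank 43 of 2001, and replicate 2 covered 41.2% with a best peak of rank 4037 of 5347. This site thus ranked high in the replicate 1 list and low in that of replicate 2.

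The 23 wide peaks met by replicate 1 alone stood at the low end of the series-wide scores and at the high end of replicate 1. Their median series-wide score was 7.20, and the best replicate 1 peaks at them had a median score of 1139, with a median rank of 133. Replicate 1 peaks covered a median of 100% of their bases. Some of these replicate 1 peaks met several wide peaks and count once for each. The 346 narrower peaks met by replicate 1 alone had a like pattern. Their median series-wide score was 4.955, and their best replicate 1 peaks had a median rank of 507. At narrower peaks met by both replicates these medians were 36.2 and 1035. Of the 42 wide peaks in the lower 5 score deciles, 15 met replicate 1 alone (35.7%, 21.6 to 52.0), against 7.69% (6.87 to 8.58) of the narrower peaks there. Another 17 met replicate 2 alone, 6 met both and 4 met neither. Some of the 42 were neighbours, including the 4 met by neither. They are thus not all separate sites, though the interval treats them as such.

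Of these 23 sites, 12 had no other wide peak within 5 kb and 11 did. At 15 there was 1 replicate 1 peak, wider than the series-wide peak at each of the 15, and at 8 there were several. On X from 110136 to 113859, 3 wide peaks with scores of 5.91 to 9.30 lay under 1 replicate 1 peak of 4932 bp. The score of that replicate 1 peak, 3128, ranked second in its list, just above the 34 peaks that shared 3100. On X from 289892 to 295163, 2 wide peaks (1974 and 3169 bp, scores 17.2 and 6.33) lay under 1 replicate 1 peak of 5567 bp. The reverse was seen on III, where the series-wide peaks were the wider ones. There, on III from 321730 to 331911, 3 successive wide peaks met replicate 1 alone, namely the 4600 bp peak above and those from 321730 to 324679 (2950 bp, score 5.61, 5 replicate 1 peaks) and from 330703 to 331911 (1209 bp, score 7.66, 2 replicate 1 peaks). The gap between the first pair of these was 56 bp, the smallest between any wide peaks. II was the only chromosome with 0 of the 23, of its 68 wide peaks (0%, up to 5.28%).

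A peak that ranked high in replicate 1 could also lie below the series-wide median score where replicate 2 had a peak. On V from 17120568 to 17125935, 3 wide peaks with series-wide scores of 7.28 to 8.44 lay under 1 replicate 1 peak of 6787 bp, which shared rank 3 of 2001, and 1 replicate 2 peak of 6838 bp, rank 935 of 5347. Another, from 17129665 to 17131960 (2296 bp, score 8.14), met peaks of rank 64 in replicate 1 and rank 367 in replicate 2. Among the 87 wide peaks that met one of the 100 best replicate 1 peaks, 10 scored below the nuclear median in the series-wide list, with scores of 4.94 to 8.44. For the 100 best replicate 2 peaks it was 1 of 91. How the authors combined the replicates is not stated, and its part in this was not tested.

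The 4 wide peaks met by neither replicate were neighbours. They lay on I from 4347185 to 4348610 (1426 bp, score 4.98), 4350092 to 4351179 (1088 bp, 5.23), 4352763 to 4353654 (892 bp, 6.07) and 4355686 to 4356501 (816 bp, 6.16). Each had between 8 and 14 other series-wide peaks within 5 kb, against a median of 2 for all wide peaks. A few kb to their left lay a wide peak met by replicate 1 alone, from 4340993 to 4342024 (1032 bp, score 7.94), under a replicate 1 peak of 4472 bp.

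Wide peaks lay close to other peaks. The median gap from the edge of a wide peak to the edge of its nearest series-wide neighbour was 567 bp (453 to 662), against 1637.5 bp (1532 to 1724) for narrower peaks. A neighbour lay within 1 kb of 298 wide peaks (61.2%, 56.7 to 65.5), against 39.7% of narrower and 41.0% of all nuclear peaks. On both sides within 1 kb it was 90 (18.5%) against 8.77%. At the score deciles of the wide peaks, 33.0% of narrower peaks had a neighbour within 1 kb. Between midpoints the medians were 1584 and 1966 bp, nearer to each other, since part of the width of a wide peak counts in this distance.

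**Figure D4:**
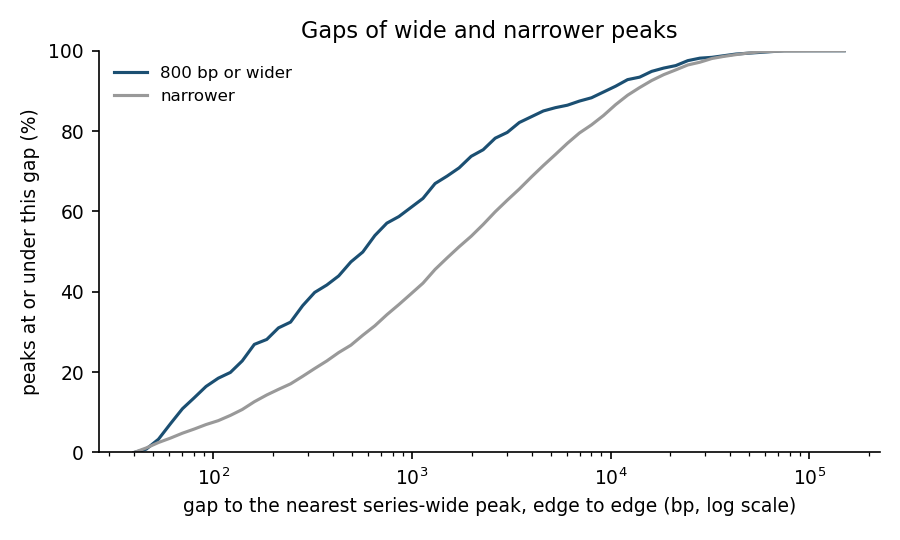
Share of peaks (y axis, %) whose nearest series-wide neighbour lies at or under a given gap from edge to edge (x axis, bp, log scale), for wide peaks (blue) and narrower peaks (grey). The curve of wide peaks lies above over most of the range, with medians of 567 and 1637.5 bp, and the curves cross near both ends. Both start at 43 bp, the smallest gap.

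The close neighbours of wide peaks were mostly weak. The 388 neighbours within 1 kb had a median width of 402.5 bp and a median score of 6.89, close to the 7.21 of the neighbours of narrower peaks. Of the 388, 74 were themselves wide (19.1%), against 8.83% for narrower peaks. By chromosome the median gap was smallest on X, at 401 bp (221 to 567), and largest on IV, at 780 bp (535 to 1457), with intervals that overlap slightly. Wide peaks met by replicate 1 alone had a median gap of 78 bp, those met by replicate 2 alone 427 bp and those met by both 662 bp. Narrower peaks stood in the same order, at 298, 1643 and 1838.5 bp.

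From wide peak to wide peak the distances were long. The median gap to the nearest other wide peak was 30978 bp (22159 to 42545), and 331 of the 487 had none within 5 kb. The other 156 (32.0%) fell into runs with gaps under 5 kb, mostly pairs, of which there were 48. The smallest gaps after that of 56 bp on III were on X, 58 bp between 3113714 and 3113773 and 59 bp between 17545023 and 17545083. The last pair was strong, with series-wide scores of 180 for each.

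The longest runs had 6 wide peaks. One lay on II from 10541932 to 10552358, with series-wide scores of 46.1, 4.78, 12.5, 48.9, 4.71 and 29.0 from left to right. Of these, 3 met both replicates, with scores of 46.1, 48.9 and 29.0, and 3 met replicate 2 alone; the first 4 lay under a single replicate 2 peak of 7990 bp. The other lay on X from 8014213 to 8023431, with scores of 10.4, 31.6, 54.1, 5.01, 31.2 and 16.8. There too 3 met both replicates and 3 met replicate 2 alone. In both runs the peaks met by both replicates were the higher scoring ones.

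A run of 5 lay on X from 4137467 to 4148427, with scores of 14.2 to 55.7. Its widest peak, from 4144194 to 4147239 (3046 bp, score 28.2), met 4 replicate 1 peaks, and 3 of the 5 lay under 1 replicate 2 peak of 6339 bp scoring 3100. The run of 4 on II from 13817751 to 13829973 was even, with widths of 853 to 907 bp and scores of 28.9 to 52.9. Each of its peaks met 1 peak of each replicate. Gene annotation and sequence were not used here, so these stretches are given by position.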

How the data were processed

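The 3 deposited peak lists were analysed, 1 per REC-8 ChIP sample and 1 series-wide; whether peak calling used the 2 input samples is not given in the sources used here. Per the file headers and source columns, peaks were called with MACS for the replicates and MACS v2 for the series-wide list, on WormBase WS220; the submitters' processing notes name BWA and ce10. The authors deposited first and last base and a score for each peak. Since what the score measures is not stated, scores were compared by rank within a list, and their sizes are not comparable between the series-wide and replicate lists. Read totals are unknown.

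Wide peaks were nuclear series-wide peaks of at least 800 bp. An overlap needed at least 1 shared bp. Each chromosome's extent was the last base of any listed peak on it. Median intervals are binomial, from order statistics, at 95%. Members, lists and named regions were chosen with earlier results of these data known. Regions named are the widest (10, and 1 per chromosome), the best scoring per chromosome, those with the most replicate peaks, the widest per overlap class, the longest run, the closest pairs and those nearest the minimum; other runs and the peaks met by replicate 1 alone were named after their values were seen. The tools were pandas 2.3.3, SciPy 1.17.1, NumPy 2.4.6 and matplotlib 3.10.9 under Python 3.11.15. Overlaps and gaps were tested on simulated lists. No gene or sequence of the peaks' build was used.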

Additional observations from a re-analysis of the deposited data

Results flagged for a closer look

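Outside the 6 nuclear chromosomes the series-wide list holds 3 mitochondrial peaks, and 3 of 3 would have met the 800 bp minimum. They were 6687, 3731 and 2542 bp wide with scores of 8.76, 7.73 and 8.32, and lay 95 and 247 bp apart. They are given because they are a signal in DNA that the comparisons leave out; the replicate lists hold 0 mitochondrial peaks each, and the input samples were not analysed here.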

How the results depend on the processing

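No paired analysis was possible because no value comes from a test and the input samples enter none. Of 71 values recomputed, 21 stayed within the interval, or within 1.5 times the count, of the reported one. A minimum of 600 bp gave 979 peaks, of which 68.7% met replicate 1, 64.2% both replicates and 12.2% more than 1 peak of a replicate, with a median score of 28.1 and a median gap of 704 bp. In the same order, 1000 bp gave 272, 82.7%, 76.8%, 30.1%, 36.4 and 432 bp, and 2000 bp gave 56, 100%, 91.1%, 55.4%, 74.3 and 221 bp, with 91.1% met by replicate 2 and 48.2% on X. With scores at or above the median, 98.2% met replicate 2 and 77.1% both. The lists of single replicates gave 274 to 819 peaks of at least 800 bp, 22.7% to 26.3% of them on X, 30.7% to 46.5% in the central section, and median gaps of 1097 to 2190.5 bp; replicate 1 gave the lower count and central share, and replicate 2 the lower X share and gap. Merging peaks under 1 kb apart gave 1238 regions of at least 800 bp, 22.5% on X, with a median gap of 3314.5 bp, long by construction. In the replicate 2 list and after merging, the X share was thus close to the 22.2% of narrower peaks in the unmerged series-wide list. The X shares of replicate 2 peaks and of merged regions under 800 bp are not given. These values therefore do not show whether wide ones are over-represented on X there. A reciprocal overlap of 50% gave 47.6% for replicate 1, 79.7% for replicate 2, 38.6% for both and 0% for more than 1 peak; for narrower peaks, chosen after the values were seen, it gave 15.0%, 52.9% and 12.3%. Midpoints of replicate peaks gave 88.5% for replicate 2. Midpoints of the wide peaks gave 62.2%, 91.0% and 55.2% for replicate 1, replicate 2 and both, and lists of equal length gave 88.3% for replicate 2. The median distance between midpoints was 1584 bp, and the section from 25% to 75% of the extent held 55.4%. Narrower peaks at matched score deciles gave 55.2%, 94.4% and 54.1%, against 20.3%, 66.7% and 15.6% unmatched. The rho of replicate scores was 0.26 below 3100, chosen after the values were seen. Unless construction shows it, the cause was not tested. Depth is unknown, which limits what a missing peak can show.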

Other observations

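Wide peaks of the replicate lists were often not wide in the series-wide list. Of the 819 replicate 2 peaks of at least 800 bp, 381 overlapped a wide series-wide peak, 433 overlapped narrower ones alone and 5 overlapped none. Of the 274 in replicate 1, 151 overlapped a wide peak, 87 narrower ones alone and 36 none. Those 36 reached 4115 bp in width and had a median score of 114, with a best rank of 307 of 2001. More than 1 series-wide peak lay under 201 of the 819 and under 66 of the 274, up to 6 and 8 under a single peak. With series-wide peaks merged across gaps under 1 kb, 1238 regions reached 800 bp, of which 421 held a wide peak, and the longest was 16129 bp.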
